A study of Mus musculus with 2 samples.

Results

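Melanocyte pigment genes are the 10 genes Mitf, Tyr, Tyrp1, Dct, Pmel, Mlana, Slc45a2, Oca2, Slc24a5 and Gpr143. They were taken by gene name from the non-control probes of a mouse expression array, and they had 13 of its 39422 probes and made up 10 of its 24288 named genes. The array was used on whole skin of newborn C57BL/6N mice at postnatal day 0, a black, non-agouti strain. The wild-type group was Pla2g4e+/+ and the knockout group was Pla2g4e-/-, which lacks a cytosolic phospholipase A2. Each group was 1 array, hybridised with equal amounts of skin RNA from 5 animals, so that differences between animals cannot be seen and no difference has a replicate check. The differences are therefore given as measured, without tests or p-values.

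Melanocytes of mouse skin arise from the neural crest, enter the developing hair follicles and there make melanin in organelles called melanosomes, which they pass to the keratinocytes of the hair. In the truncal skin of mice the pigment of newborns is found chiefly in growing hair follicles. The transcription factor MITF, with SOX10 and PAX3 upstream of it, directs the genes that make the enzymes, fibres and ion transporters of the melanosome.

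The sequences that follow show what several of these genes share before their start, the whole or the core of a word known as the M-box. This word is an extended E-box to which MITF binds. Windows of 300 bases, from 250 before to 50 after an annotated start, were taken from RefSeq on GRCm38.p6 and matched by symbol to 6 of the 10 genes, with 3 windows for Mitf. Each line gives 75 bases before the start on the strand of the gene, 5′ to 3′, with the motif in capitals. For Tyr and Tyrp1 the capitals mark the M-box word of 11 bases, and for Dct and Slc24a5 only its core of 7 bases. In the Mitf line the capitals mark a different motif, TGACGTCA, and not the M-box or its core.
Tyr, chr7:87493513-87493587, minus strand: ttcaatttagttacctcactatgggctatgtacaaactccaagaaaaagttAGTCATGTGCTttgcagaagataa
Tyrp1, chr4:80834113-80834187, plus strand: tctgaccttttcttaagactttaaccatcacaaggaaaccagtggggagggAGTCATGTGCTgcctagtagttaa
Dct, chr14:118052367-118052441, minus strand: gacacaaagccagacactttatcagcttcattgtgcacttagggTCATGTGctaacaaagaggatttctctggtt
Slc24a5, chr2:125068052-125068126, plus strand: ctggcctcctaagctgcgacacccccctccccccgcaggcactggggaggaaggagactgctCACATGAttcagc
Mitf, chr6:97991593-97991667, plus strand: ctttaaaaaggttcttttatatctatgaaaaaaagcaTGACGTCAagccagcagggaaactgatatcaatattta

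The longest stretch around the core of this word that Tyr and Tyrp1 had in common was AGTCATGTGCT, in Tyr at bases -24 to -14 and in Tyrp1 at bases -49 to -39 from the annotated start. On either strand, that word was present in 7 of 32851 windows of all genes, or 0.0213%, and 2 of the 7 were these. Its presence in these 2 was fixed in advance, since the word was read from them. The core TCATGTG, which lies within that word, was present in 3.77% of all windows and in those of Tyr, Tyrp1, Dct and Slc24a5. In Slc24a5 it lay on the opposite strand and reads CACATGA in the line above, and Dct held a second match on the opposite strand at -232 to -226. The shorter E-box CATGTG, part of the core, was in 14.2% of all windows and also in that of Oca2. The symmetrical E-box CACGTG, found in 7.15% of windows, was in 0 of the 8 windows of these genes. The last of the 3 Mitf windows along the chromosome held TGACGTCA, the cyclic AMP response element, at -153 to -146; this word was in 1.79% of all windows. These are matches of letters and not sites shown to be bound.

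All 10 genes were well above background on both arrays, the scanner software's mark for a spot brighter than its surroundings, and 19397 of the named genes were. Levels are the processed signal, an intensity on a linear scale, and differences are log2 of the knockout signal minus log2 of the wild-type signal after each array was divided by its own 75th percentile. Signals of different probes cannot be set against each other, so the genes have no order of level. The 75th percentile was 2233 on the wild-type array and 2096 on the knockout array, and 78.0% and 80.8% of probes were well above background. The scanner software's own error for a difference was 0.20 log2 in each of the 10 genes, and its median over all measured genes was also 0.20. It is nearly the same for all bright probes, so it serves here as a near-fixed size and not as noise measured on these spots. Between spots of the same probe, the measured SD had a median of 0.03 log2 over 261 probes printed 10 times. Both leave out the animals. Pla2g4e, the targeted gene, read 662 in wild-type skin and 320 in knockout skin with 1 probe, a difference of -0.96 log2, and its second probe was near background; which part of the gene was deleted was not known here. The wild-type pool held RNA of the Y-linked genes Ddx3y and Eif2s3y, which read 2893 and 5363 there and 2.36 and 6.35 in the knockout pool, where they were not well above background. Xist, the transcript of the inactive X, was well above background in both pools, at 796 in wild type and 2889 in knockout. Every difference below therefore also sets pools of unlike sex make-up side by side, and sex and genotype cannot be told apart.

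Pigment genes were lower in the knockout skin in 9 of the 10, by modest amounts. Across all measured genes 48.2% were below 0. The median of the 10 was -0.31 log2, which left 80.7% of the wild-type level, beside a median of 0.01 over all measured genes. Of the 10, 2 were lower by 1.5-fold or more, namely Mlana and Oca2, a size that 4.5% of all measured genes reached in that direction. At least 1.5-fold higher were 0 of 10, against 6.74% of all measured genes, and 0 of 10 reached 2-fold in either direction, against 1.44% of genes lower and 2.23% higher. The differences of 3 of the 10, Mlana, Oca2 and Pmel, were more than 2 scanner errors below 0, as were 7.81% of all measured genes, and those of Mitf, Dct and Tyrp1 were smaller than it. In whole skin, fewer melanocytes and less RNA of these genes per melanocyte cannot be told apart.

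**Figure D1:**
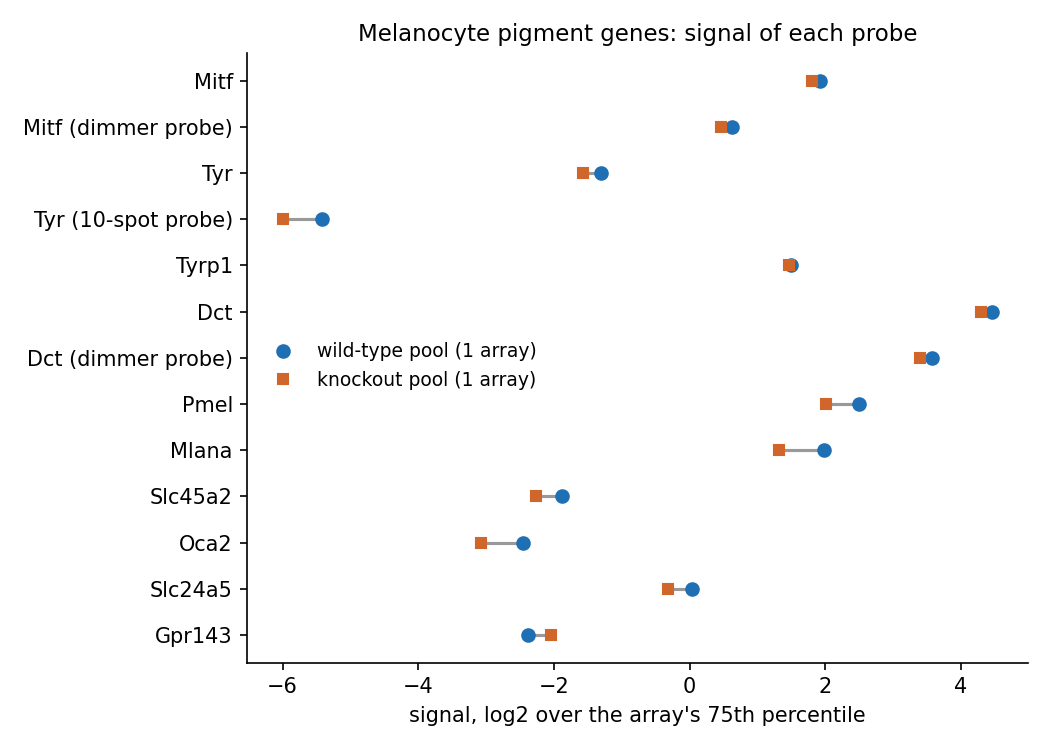
Signal of each of the 13 probes of the 10 pigment genes, as log2 over the 75th percentile of its array (x axis), with circles for the wild-type pool and squares for the knockout pool, 1 array each. The square lies left of the circle for every gene but Gpr143; only the 2 marks of a row can be compared, since probes differ in how bright they are.

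**Figure D2:**
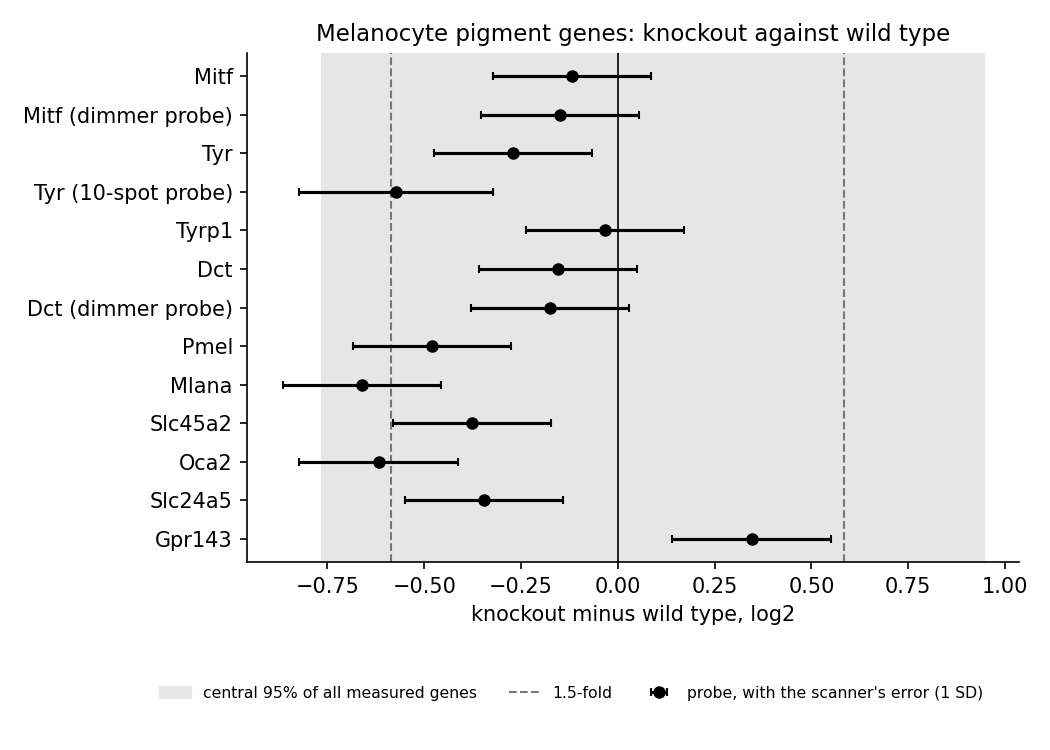
Difference between knockout and wild type in log2 (x axis) for each probe, with bars of 1 SD from the scanner's error model; the grey band is the central 95% of all measured genes, from -0.76 to 0.95, and dashed lines mark 1.5-fold. Mlana and Oca2 lie past the left line by their mean, the bars of Tyrp1 and of both probes of Mitf and of Dct span 0, and all 13 probes lie inside the band.

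Mitf, the factor at the head of the programme, differed little. Probe positions here and below are those of the array's file, on mm9, and were not placed in exons or UTRs. Its brighter probe, at chr6:97971229-97971288, read 8440 in wild-type skin and 7297 in knockout skin, a difference of -0.12 log2. Its other probe, at chr6:97968501-97968560 and 2668 bases away, read 3427 and 2899, or -0.15 log2. Both probes carry the same transcript name, and whether they separate the melanocyte form from the forms of mast cells and other cells was not known here. Of all measured genes, 31.0% were as low or lower.

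By their brightest probes, the 3 enzymes of melanin synthesis were lower by less than 1.5-fold. Tyr had the largest of these differences, and whether the enzymes differ from each other was not tested. Tyr encodes tyrosinase, the rate-limiting enzyme that oxidises tyrosine, and its brighter probe read 907 in wild-type skin and 705 in knockout skin, or -0.27 log2. Dct, dopachrome tautomerase, read 49026 and 41312, or -0.16 log2, with the probe at chr14:118412029-118412088. A second Dct probe, which shares 44 of its 60 bases with the first and so is not independent of it, stood at -0.18 log2. Tyrp1, which acts on a later intermediate of black melanin, read 6271 and 5753 with a probe at chr4:80497524-80497583, and its difference of -0.03 log2 was the smallest of the 10. The 2 genes with the full M-box word stood at -0.27 and -0.03 log2.

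Tyr also had the one probe among the 10 genes that was printed many times. This probe lies at chr7:94576265-94576324, 56089 bases from the brighter one at chr7:94632414-94632473 on the minus strand. Its 10 spots read from 45.9 to 61.9 in the wild-type pool, with a median of 52.6. In the knockout pool they read from 26.7 to 38.6, with a median of 33.4. The spots of the 2 arrays did not overlap, before scaling or after it. How many other probes of 10 spots were separate in this way was not counted here, so the separation cannot be called particular to Tyr. Paired by position on the array, all 10 spots were lower in the knockout, by -0.38 to -0.81 log2, and the mean difference was -0.57 log2 ± 0.16 (SD, n = 10 spots of 1 array pair). That SD compares with a median of 0.12 over 17 probes of 10 spots with a signal within 2-fold of this one, and of 0.03 over all 261 such probes that were well above background. Spots are repeats of the same hybridisation, not of the animals. The 2 Tyr probes agreed in direction and differed from each other by 0.30 log2.

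**Figure D3:**
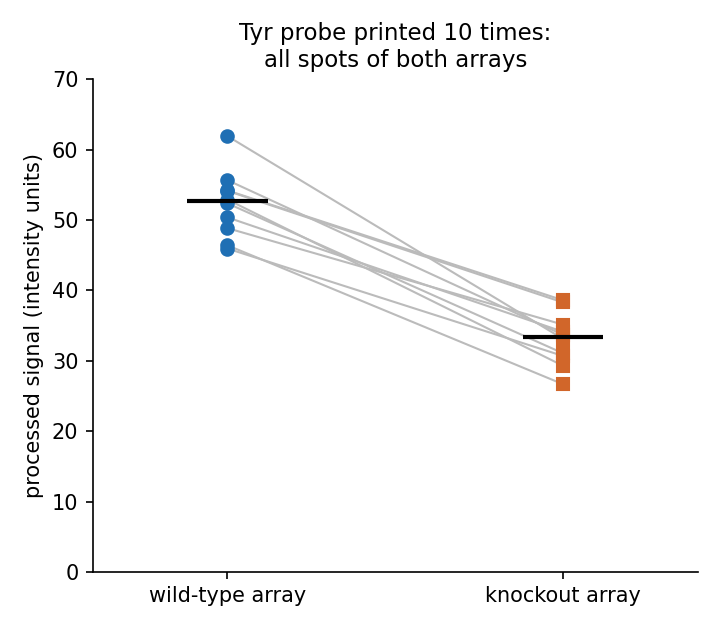
Processed signal (y axis, intensity units from 0) of the Tyr probe that was printed 10 times, on the wild-type and the knockout array, with lines joining spots at the same place and a bar at each median. All wild-type spots lie at 45.9 or above and all knockout spots at 38.6 or below.

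The structural proteins of the melanosome, Pmel and Mlana, stood below the enzymes as given by their brightest probes, while the 10-spot Tyr probe at -0.57 log2 lay between them. Pmel forms the amyloid fibres on which melanin is laid down. It read 12584 in wild-type skin and 8471 in knockout skin, a difference of -0.48 log2, and 6.46% of measured genes were as low. The array's file gives its probe no position. Mlana, a small melanosome membrane protein that binds PMEL and is needed for its processing, had the largest difference of the 10. Its probe at chr19:29782737-29782796 read 8789 and 5214, or -0.66 log2, 1.58-fold lower. Of all measured genes 3.34% were as low as Mlana, and of the genes in the same decile of signal, 1.03% were.

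The ion transporters of the melanosome membrane were lower in all 3 cases. Oca2, a chloride channel that raises melanosome pH and is the pink-eyed dilution gene of mice, read 405 in wild-type skin and 248 in knockout skin with a probe at chr7:63791667-63791726. Its difference was -0.62 log2, 1.53-fold lower, and 4.0% of measured genes were as low. Slc45a2, the transporter altered in underwhite mice, read 604 and 436 at chr15:10958929-10958988, or -0.38 log2. Slc24a5, an exchanger of sodium, calcium and potassium, read 2278 and 1682 at chr2:124913773-124913832, or -0.35 log2. Their median was -0.38 log2, against -0.16 for the 3 enzymes and -0.57 for the 2 structural proteins; a difference between these small groups was not tested.

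Gpr143 was the 1 gene of the 10 that was higher in the knockout pool. It encodes a receptor in the melanosome membrane that limits melanosome size, and it lies on the X chromosome. Its probe at chrX:149243130-149243189 read 428 in wild-type skin and 510 in knockout skin, a difference of 0.35 log2 that 85.2% of measured genes did not exceed. The 649 measured genes of the X chromosome had a median of 0.07 log2 and those of the numbered chromosomes 0.01. The inactive-X transcript Xist stood at 1.95 log2. The part of sex in the value of Gpr143 was not tested.

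The wider pigment pathway, taken as 5 lists with 85 genes in all, did not stand apart from other genes by its median. Of 84 measured genes, 1 was at least 1.5-fold lower, 3 were at least 1.5-fold higher and 43 were below 0, with a median of 0.00 log2. Across all measured genes 4.5% were lower and 6.74% higher by that size, and 48.2% were below 0. Trpm1, whose 3 probes disagree, is counted here by its brightest probe at 0.32 log2; under normexp background correction it stood at -0.69, and 2 genes were lower by that size. The 1 lower gene as reported was Mc1r, the melanocortin receptor through which melanocytes are switched to black pigment by way of cyclic AMP. Mc1r read 2277 in wild-type skin and 882 in knockout skin, a difference of -1.28 log2 with a scanner error of 0.20. It was 2.42-fold lower, more than any of the 10 pigment genes, and 0.784% of measured genes were as low. It had 1 probe, so no second probe bears on this value.

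Regulators of the melanocyte lineage had a median of 0.14 log2 over 14 measured genes, with 4 below 0, against 48.2% of all measured genes. Those 4 included SOX10 and PAX3, the activators of Mitf. Sox10 was the lowest, at -0.25 log2, with signals of 1944 and 1535. Pax3 stood at -0.08 log2 with its brighter probe and at -0.19 with a probe of 10 spots. Ednrb, the endothelin receptor that melanoblasts need to spread through the skin, stood at -0.23 and -0.26 log2 with its 2 probes. Kit, the receptor for stem cell factor, went the other way and stood at 0.29 log2; mast cells express it too. Irf4, a factor that acts with MITF on Tyr, is also a lymphocyte gene. It was the 1 member of the 14 higher by 1.5-fold or more, against 6.74% of all measured genes. Its signals were 374 in wild-type skin and 732 in knockout skin, a difference of 1.06 log2.

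Signals that reach melanocytes from other skin cells had a median of 0.00 log2 over 15 measured genes, Mc1r among them. Kitl, the stem cell factor of keratinocytes and fibroblasts, stood at -0.06 log2, and Edn3, the endothelin of melanoblast growth, at 0.02 from a dim probe. Pomc, the precursor of the hormone that activates the melanocortin receptor, stood at 0.20 log2. Hgf, a growth factor of melanocytes, was the 1 member at least 1.5-fold higher, against 6.74% of all measured genes. It stood at 0.60 log2, from a probe that read 38.9 and 55.5. Asip, the agouti antagonist of the same receptor, had no probe under that name.

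Genes that build the melanosome and move it differed by less than 1.5-fold throughout. Of all measured genes, 4.5% were lower and 6.74% higher by that size. The biogenesis list, which holds the Hermansky-Pudlak genes, the AP-3 and BLOC-1 complexes and related lysosome genes, had a median of -0.04 log2 over 34 measured genes. It ran from -0.42 for Vac14, a scaffold of phosphoinositide synthesis, to 0.41 for the cystine transporter Slc7a11. Of the 34, 22 were below 0, against 48.2% of all measured genes. Most genes of this list are active in all cells that have lysosomes. The transport list had a median of 0.06 log2 over 10 genes, from -0.32 for Sytl2 to 0.48 for Exph5, both partners of RAB27A. Within it Rab27a, Mlph and Myo5a, the complex that tethers melanosomes to actin, stood at 0.20, 0.33 and -0.06 log2.

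Other genes that MITF is known to regulate had a median of 0.09 log2 over 12 measured genes. Gpnmb, a close relative of Pmel that macrophages also make, stood at -0.44 log2, with signals of 1388 and 962, the lowest when each gene is given by its brightest probe. Ppargc1a, a coactivator of mitochondrial genes active in muscle and brown fat too, was the 1 member higher by that size, at 0.68 log2. Trpm1, a cation channel of melanocytes, had 3 probes that went different ways, at -0.70, 0.32 and 0.55 log2, so that it has no single value. It enters the list at 0.32, the value of its brightest probe by the mean of both arrays, and under normexp at -0.69, below Gpnmb. The Trpm1 probe at -0.70 log2 read 2280 in wild-type skin and 1313 in knockout skin.

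**Figure D4:**
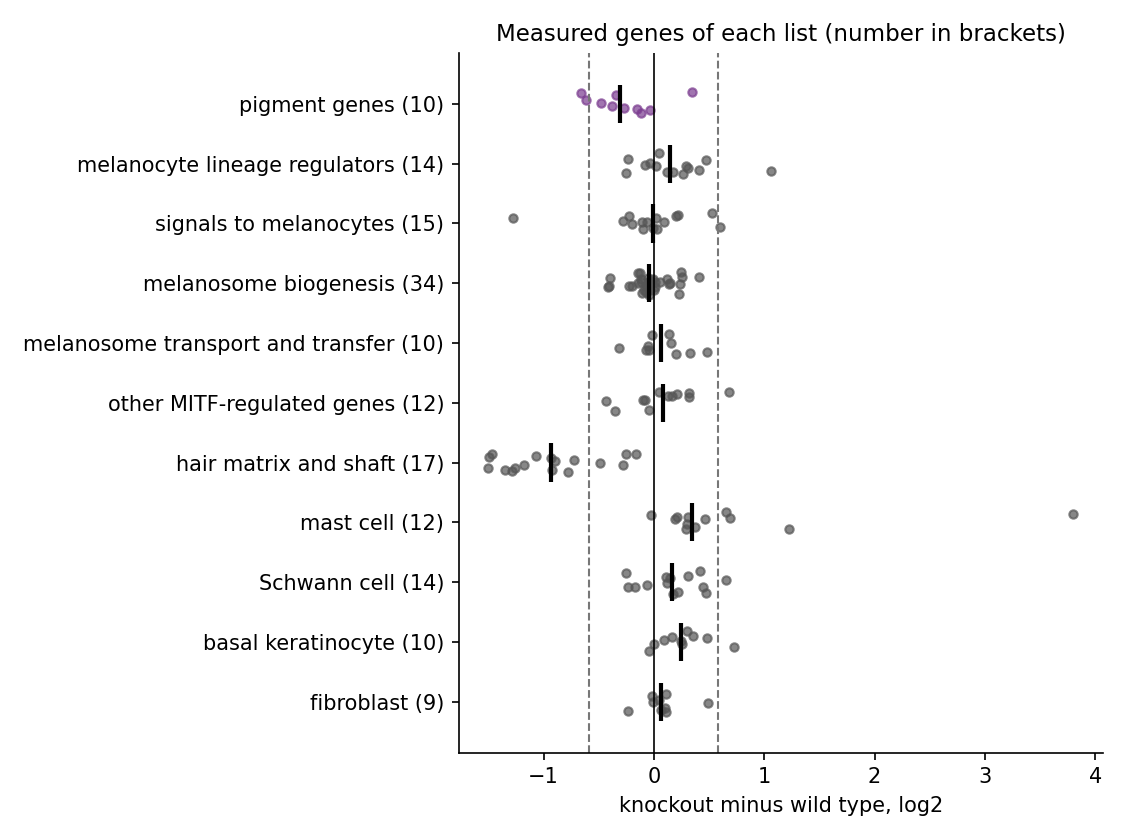
Difference between knockout and wild type in log2 (x axis) for every measured gene of each list, with a bar at the median and dashed lines at 1.5-fold; points are spread up and down only to be seen. The 10 pigment genes sit left of 0 but for Gpr143, the median of the hair genes lies farther left while some of them lie among the pigment genes, and the mast cell genes lie right of 0 but for 1.

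Hair genes were lower beside the pigment genes, and by more. All 17 measured markers of hair matrix and shaft were below 0, against 48.2% of all measured genes. Of the 17, 13 were lower by 1.5-fold or more, against 4.5%, and 0 were higher by that size, against 6.74%. Their median was -0.93 log2. Their summed scaled signal was 5.94 log2 in wild-type skin and 5.06 in knockout skin. The sum over the pigment genes was 5.33 and 5.10 log2, of which Dct alone made up 54.6% in wild-type skin. Such sums follow the brightest probes and can be compared only between the pools of 1 list. The hair keratins Krt34 (-1.50), Krt87 (-1.49), Krt33b (-1.47) and Krt86 (-1.35) were the lowest, and Lef1, a Wnt effector of the hair matrix, the highest at -0.17. Msx2, a factor of the matrix cells that surround bulb melanocytes, stood at -1.06 log2, and Foxn1, which in the matrix acts on the transfer of pigment to hair, at -0.28. Hair keratins are near relatives of each other, and probes may share signal among them. The part of hair follicle content in the lower pigment genes was not tested.

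Lists of other cells that share genes with melanocytes had medians above 0. Schwann cells, which also arise from the neural crest and express Sox10, had a median of 0.16 log2 over 14 measured markers, from Sox10 at -0.25 to Cdh19 at 0.66, with a summed signal of 4.72 log2 in wild-type skin and 4.93 in knockout skin. Mast cells, which express Mitf and Kit, had a median of 0.34 log2 over 12 markers and a summed signal of 5.44 and 6.06 log2. Of these, 4 were at least 1.5-fold higher, against 6.74% of all measured genes. They were Fcer1a (3.80), Hdc (1.22), Mrgprb1 (0.69, with a dimmer probe at -1.05) and Cpa3 (0.65). Fcer1a had a dim signal of 46.3 in wild-type skin and 606 in knockout skin, and stood at 2.68 log2 under normexp. Mrgprb2 was lowest at -0.03. Basal keratinocyte markers had a median of 0.25 log2 over 10 genes, from Krt5 at -0.05 to Dst at 0.72. Dst was the 1 member past 1.5-fold when each gene is given by its brightest probe. Of all measured genes, 6.74% were higher by that size. Trp63 enters at 0.30, the brightest of 4 probes that disagree, at 0.30, 0.20, -0.55 and -0.66 log2. Fibroblast markers had a median of 0.07 over 9 genes, from Lum at -0.23 to Pdgfra at 0.49. The part of mast cell RNA in the values of Mitf and Kit was not tested.

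The values of the pigment genes were little moved by the way the arrays were scaled. Over the other 9 settings of scaling, background, probes and values, the sign of each of the 10 differences stayed as given, and none moved by as much as its scanner error. Mlana ranged from -0.75 to -0.66 log2 and Tyrp1 from -0.12 to -0.03. Oca2 ranged from -0.71 to -0.50 and was no longer 1.5-fold lower under normexp background correction, which draws dim signals together.

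**Figure D5:**
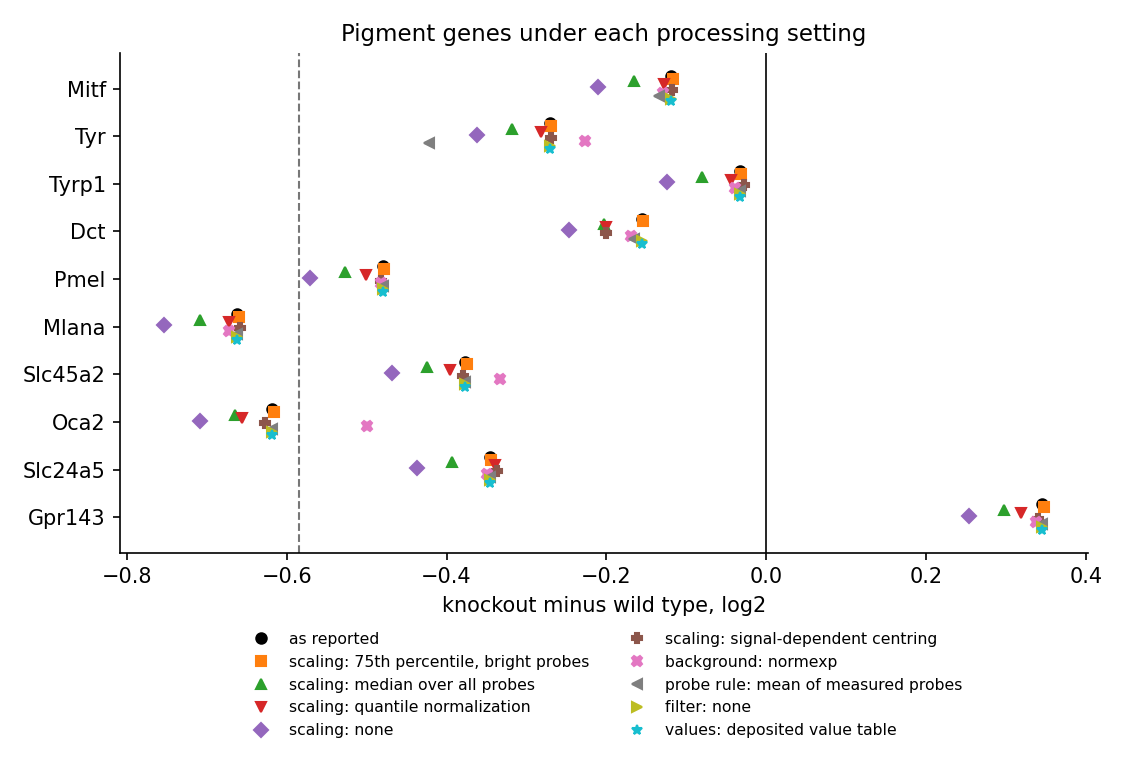
Difference between knockout and wild type in log2 (x axis) of the 10 pigment genes under the reported setting (black circles) and 9 alternatives, 1 symbol each; the dashed line marks 1.5-fold lower. The symbols of a gene keep to 1 side of 0, the unscaled values lie to the left of the others except for Tyr, and Oca2 crosses the dashed line under normexp.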

How the data were processed

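RNA from skin was labelled with Cy3 and hybridised to 2 arrays of the Agilent design 026655, both on 1 slide, and read with Agilent Feature Extraction 11.5.1.1, as the file headers and the submitters' processing notes record. The scanner files deposited hold the intensity of each spot, from which the software had subtracted background and spatial trends, per the file headers, together with its flags. The deposited value table holds a ratio, the processed intensity over 1 constant per array (2406 for wild type, 2273 for knockout), linear and without centring of genes; where the constant comes from was not known here.

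Control spots and 234 outlier spots were left out, which removed 7 probes; 0 spots were saturated. Spots of a probe were averaged as log2 intensity and the array's 75th percentile was subtracted. Probes were named through RefSeq (GRCm38.p6): 28326 by accession, 2204 by symbol and 174 by synonym, while 1767 kept the file's name and 6951 had none. A gene was its brightest probe well above background on both arrays. Alternatives were the 75th percentile over bright probes, the median, quantile normalization, no scaling, signal-dependent centring, normexp (limma 3.58.1, offset 50), the mean of probes, no filter, and the value table. The calculation was tested on simulated data. Numbers were computed in Python 3.11.15.

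The members and the lists were chosen with earlier results of these data known. From each list the genes past 1.5-fold, up to 4 in each direction, and the highest and lowest are named. Pax3, Ednrb, Kit, Kitl, Edn3, Pomc, Trpm1, Rab27a, Mlph, Myo5a, Msx2, Foxn1 and Trp63 were named besides, with their values known. With 2 arrays no likeness of pattern between genes can be measured.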

Additional observations from a re-analysis of the deposited data

How the results depend on the processing

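The median of the 10 pigment genes stayed within 1 scanner error of its value under all 9 alternatives. The count of members at least 1.5-fold lower, 2 as reported, was 1 under normexp and 0 at a size of 2-fold. Of all measured genes, 4.5% were at least 1.5-fold lower as reported and 2.18% under normexp, while 1.44% were at least 2-fold lower. The count of members at least 1.5-fold higher was 0 throughout, against 6.74% of all measured genes as reported. Mrgprb1, a mast cell gene with 2 probes of opposite sign, went from 0.69 to -0.18 log2 when its probes were averaged. Hgf was no longer 1.5-fold higher under median, quantile, signal-dependent or no scaling or under normexp, which left 2 such genes of the wider pathway. Another 10 values of genes outside the 10 moved by more than their scanner error, among them Krt85, which was -0.92 log2 with its brightest probe, -0.39 as a mean of 3 probes and 0.00 under normexp, where another probe was the brightest. With no scaling the median of all measured genes was -0.08 log2, and the pigment genes are read relative to it. No paired analysis was possible because each group is 1 array. With 1 array per group, the spread among animals is unknown whatever the signal. Dim probes also had larger scanner errors: the second Tyr probe, with medians of 52.6 and 33.4, had one of 0.25 log2, and the lowest signals well above background were 13.5 on the wild-type array and 9.84 on the knockout array.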
